A study of Saccharomyces cerevisiae with 6 samples.

Results

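The genes described here encode the machinery of messenger RNA synthesis in budding yeast (Saccharomyces cerevisiae): RNA polymerase II (Pol II), the factors that accompany it along genes, and Mediator. The members were the 51 gene symbols of a fixed list, 10 Pol II subunits, 16 elongation factors with their linked kinases and 25 Mediator subunits. Each was matched by symbol to the platform annotation. All 51 were found, on 65 of the 7680 array features. The Pol II subunits had 11 features, the elongation factors 24 and Mediator 30, and 14 members had 2 features each. Total RNA of the temperature-sensitive yra1-1 mutant was set directly against total RNA of a Yra1 wild-type strain on 6 two-colour arrays. Both strains were at 37 °C, the labelled non-permissive temperature of the mutant. The title of array 1 alone puts the letters mex in front of the mutant's name, with no word on their meaning. The sources used here name no medium or time at that temperature, and the labels do not tell whether the RNAs came from separate cultures. In total RNA of a culture, fewer cells with a transcript and less of it per cell cannot be told apart.

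Pol II is the enzyme that transcribes all protein-coding genes, and its largest subunit carries a long C-terminal domain of repeats that kinases phosphorylate as the enzyme starts and elongates. Mediator bridges gene-specific activators and the polymerase. It is built of a head, a middle and a tail, joined by a scaffold subunit, with a kinase module that can come and go. The elongation factors open and restore chromatin in front of and behind the enzyme, keep it processive and recruit RNA-processing factors. Yra1 is an mRNA export factor that joins the transcript while it is still being made.

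Values are log2 ratios of the 2 channels, converted from the deposited log10 ratios and centred on each array's median, so every side of 0 is relative to that median. Arrays 1, 4 and 6 carried the mutant RNA in channel 1, whereas arrays 2, 3 and 5 carried it in channel 2. The sources used here do not say which channel is the numerator, so the direction of a mutant effect is not settled, and results are given as the positive or negative side of 0. Each is read in 2 ways, with signs turned by the labelled mutant channel (arrays 2, 3 and 5 change sign) or with the columns as deposited. A shift is the limma coefficient over the 6 arrays, with the other sign term in the same fit, and p-values were adjusted by Benjamini-Hochberg across the 7680 features. The arrays held 7625 to 7680 values. Across features, pairs of arrays of the same labelled channel correlated at 0.0417 to 0.386 and pairs of opposite channel at −0.135 to 0.326, so the arrays agreed only loosely under either reading. Array 1 stood apart for the mutated gene and 2 strain markers: YRA1 lay at −1.39 there and at 1.00 to 3.49 on the others, TRP1 at −3.48 against 2.76 to 4.16, and URA3 at 3.19 against −5.92 to −2.21 (columns as deposited). On arrays 2 to 6 each of these 3 genes thus lay on a single side as deposited, across both labelled channel assignments, and turning by the labels puts arrays 2, 3 and 5 opposite arrays 4 and 6. With array 1 also turned over, the deposited columns put each of these 3 genes on a single side on all 6 arrays. The main shifts below are therefore also given without array 1, and the leading ones of each reading with its sign turned over.

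None of the 65 member features passed in either reading. With signs turned, limma called 0 of 65 at an adjusted p under 0.05, against 0.013% of all features (1 of 7680). At an unadjusted p under 0.05 it placed 5 member features on the positive side (7.69%, against 7.51% of all features) and 2 on the negative side (3.08%, against 5.48%). As deposited, limma again called 0 of 65, against 1.65% of all features, with 1 at an unadjusted p under 0.05 on the positive side (1.54%, against 6.13%) and 5 on the negative side (7.69%, against 7.33%). With signs turned, 5 member features were positive on every array (7.69%, against 3.07% of all features): RPB11, SSN3, SIN4, SRB6 and 1 feature of CTK1. RTF1, ELF1 (1 feature each) and GAL11 were negative on every turned array (4.62%, against 4.26%). These counts rest on the sign of array 1: with that array turned over, 0 of 65 member features were positive and 0 negative on every turned array (0.885% and 0.664% of all features), and the member features at an unadjusted p under 0.05 numbered 2 (3.08%, against 3.80% of all features). As deposited, the same change left 3 at an unadjusted p under 0.05 (4.62%, against 8.84%). With the arrays as labelled, apart from the 5 that were positive on every turned array, these shares lay near or below those of all features, so counts of passing features do not set the transcription machinery apart. The median shift over the 65 features was 0.11 turned and −0.085 as deposited, beside 0.042 and 0.017 over all features tested.

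**Figure D1:**
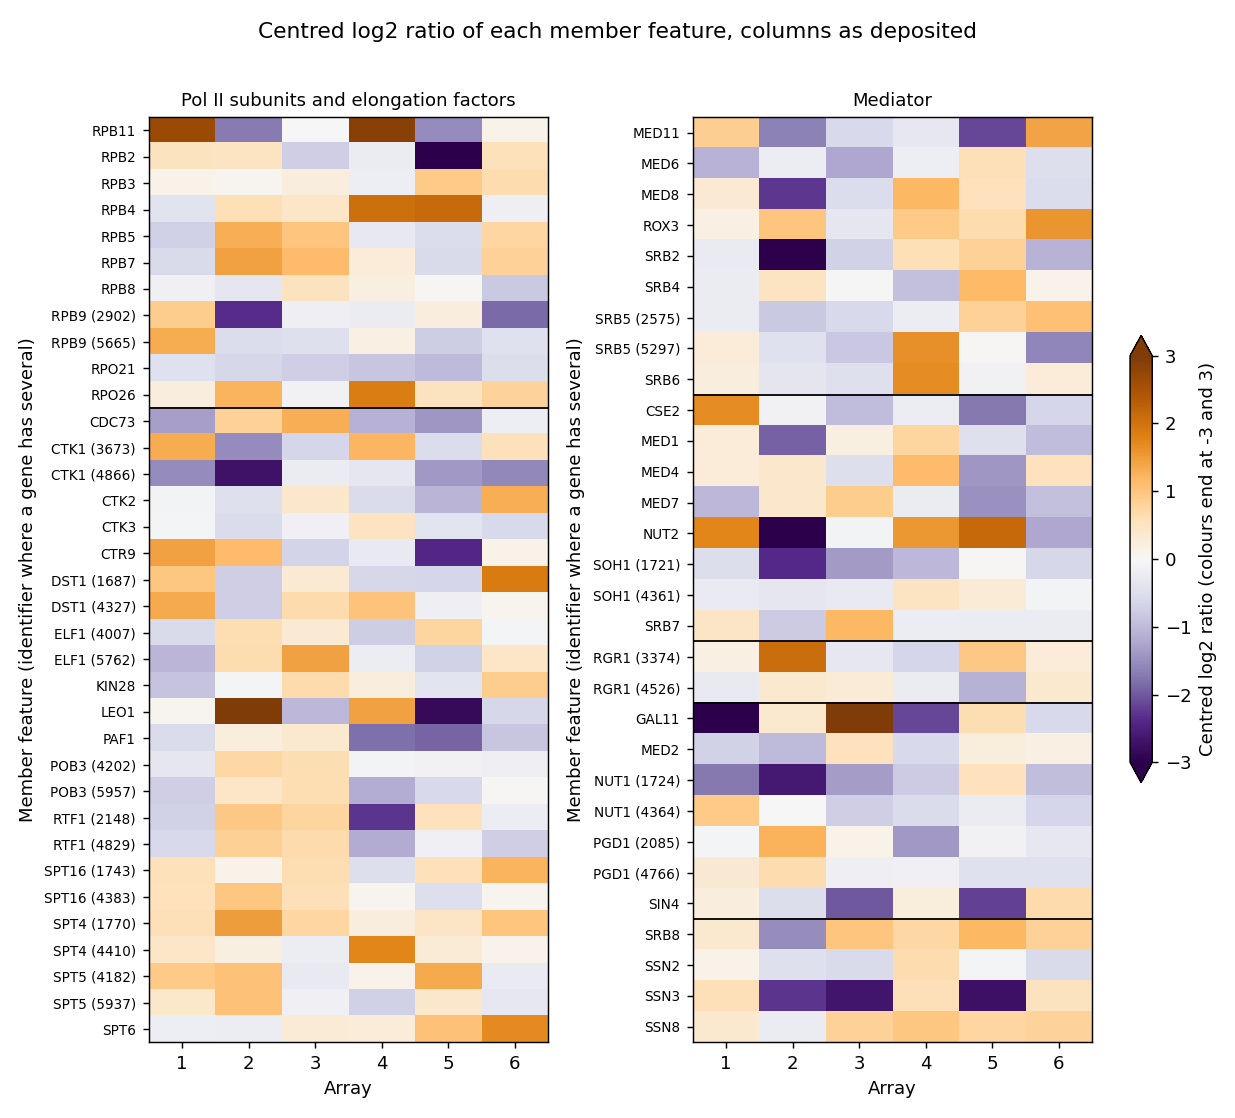
Centred log2 ratio of each of the 65 member features (rows) on the 6 arrays (columns), as deposited, with Pol II subunits and elongation factors on the left and Mediator head, middle, scaffold, tail and kinase module from top to bottom on the right, divided by black lines. Colours run from −3 to 3 and stronger values take the end colour. Few rows keep 1 colour across all arrays, RPO21 and SPT4 (1770) being examples, and the darkest cells, such as GAL11 on arrays 1 and 3 and NUT2 on array 2, are single arrays.

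Each class median lay closer to 0 than the SD of that median over the 6 arrays, in both readings. With signs turned, the median shift was 0.093 for Pol II subunits, −0.034 for elongation factors and 0.21 for Mediator. The SD of the class median over the 6 arrays was 0.21, 0.33 and 0.28 in the same order. As deposited, the medians were 0.25, 0.068 and −0.18, with SDs of 0.27, 0.35 and 0.24. These SDs describe the spread of single arrays. They are not standard errors of the median shifts, and no class median was tested. Mediator leaned to the positive side when turned, with 20 of 30 features above 0 (66.7%, against 53.5% of all features), and to the negative side as deposited, with 21 of 30 below 0 (70.0%, against 48.5%). Its turned array medians were 0.20, 0.39, 0.40, −0.15, −0.034 and −0.27 on arrays 1 to 6, so arrays 1 to 3 and arrays 4 to 6 lay on opposite sides of 0. Within labelled day 1 (arrays 5 and 6) the turned Mediator median was −0.14, and within day 4 (arrays 1 and 3) it was 0.23. The elongation factors had turned medians of 0.30 within day 1 and −0.15 within day 4, and the Pol II subunits of 0.17 and 0.15. The lean of Mediator was therefore not shared by the 2 days that hold both channel assignments.

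**Figure D2:**
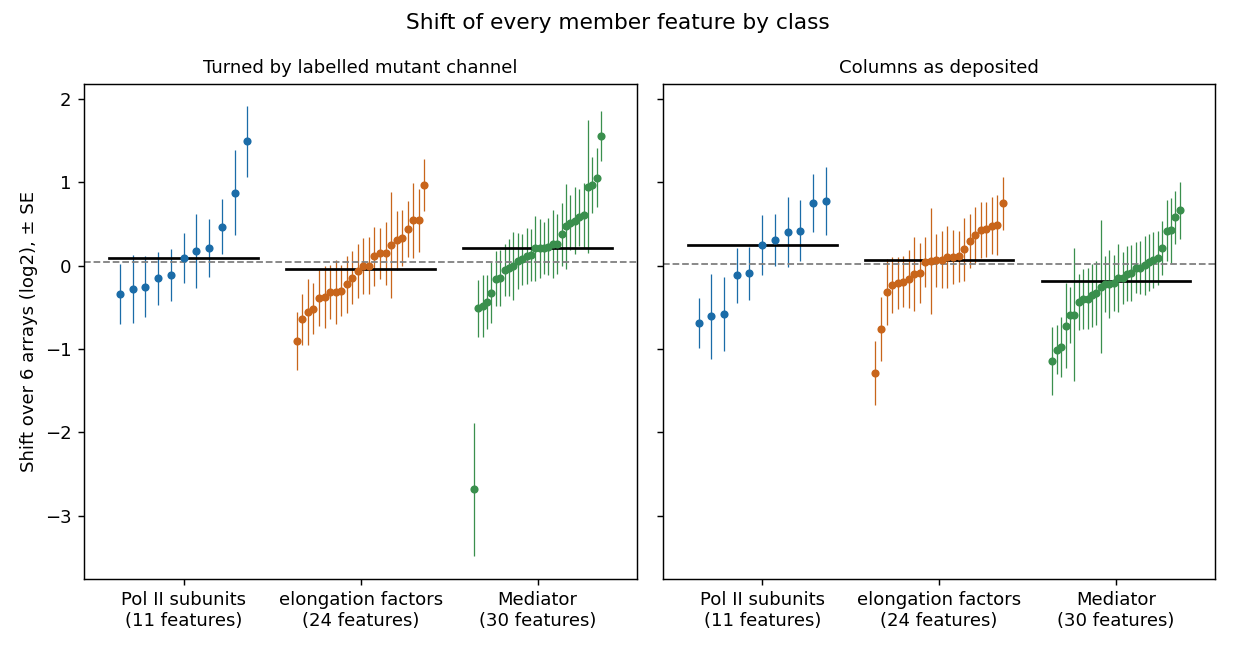
Shift over the 6 arrays (log2, ± SE) of every member feature, sorted within its class, with signs turned on the left and as deposited on the right. Black bars are class medians and the dashed line is the median of all features tested. The classes overlap over most of their range, and GAL11 at −2.68 stands alone below the turned values of Mediator.

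Pol II was led by its largest subunit in the deposited columns and by a small subunit in the turned ones. RPO21 encodes the largest subunit, the one with the C-terminal repeats. It lay at −0.43, −0.61, −0.73, −0.85, −0.99 and −0.50 on arrays 1 to 6 as deposited. All 6 arrays were on the negative side, and their range of 0.56 was the narrowest of the 65 member features. The shift was −0.69 ± 0.30 (SE, limma adjusted p = 0.339), −0.73 without array 1 (adjusted p = 0.451) and −0.54 with array 1 turned over (adjusted p = 0.654). Turned by the labels the same values cancelled to 0.093 ± 0.30 (adjusted p = 0.951). As deposited, 2 of the 65 member features were negative on every array (3.08%, against 4.08% of all features), RPO21 and 1 feature of CTK1. This rests on the sign of array 1. With that array turned over, the 2 negative on every array were instead NUT1 (4364) and CSE2 (3.08%, against 2.21% of all features).

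RPB11 encodes a small subunit that pairs with the RPB3 product during assembly of the enzyme. It lay at 2.67, −1.71, −0.019, 2.88, −1.54 and 0.13 on arrays 1 to 6 as deposited. After turning all 6 arrays were positive, though arrays 3 and 6 were close to 0. The turned shift was 1.49 ± 0.42 (limma adjusted p = 0.249), 1.30 without array 1 (adjusted p = 0.537) and 0.60 with array 1 turned over (adjusted p = 0.970). It was 0.83 within day 1 and 1.34 within day 4. Its partner RPB3 was at −0.11 ± 0.31 turned (adjusted p = 0.946), and the difference between the partners was not tested.

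RPB2, the second-largest subunit, which shapes the active site with the RPO21 product, lay at 0.49, 0.47, −0.73, −0.23, −4.19 and 0.54 as deposited. Array 5 was far from the others. The turned shift was 0.88 ± 0.51 (limma adjusted p = 0.528), and it was 0.20 without array 5. RPB4 and RPB7 form the stalk of the enzyme and were both on the positive side as deposited, at 0.77 ± 0.41 (adjusted p = 0.467) and 0.42 ± 0.37 (adjusted p = 0.727). RPB5, RPO26 and RPB8, which Pol II shares with RNA polymerases I and III, were at 0.25 ± 0.36, 0.76 ± 0.35 and −0.091 ± 0.32 as deposited, with adjusted p of 0.870, 0.373 and 0.956. RPB9, a small subunit linked to accurate transcription, had features at −0.58 ± 0.45 and −0.11 ± 0.33 as deposited (adjusted p = 0.675 and 0.942). The second of these (5665) held the same value as the feature of MAD1 on 4 arrays.

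Among the elongation factors, RTF1 lay on the negative turned side at both of its features. RTF1 is a subunit of the Paf1 complex, which travels with Pol II and is needed for histone modifications on transcribed genes. It was spotted in 2 places, 2681 identifiers apart. The first feature (2148) lay at −0.70, 0.94, 0.77, −2.28, 0.53 and −0.20 on arrays 1 to 6 as deposited, and the second (4829) at −0.59, 0.83, 0.66, −1.18, −0.12 and −0.73. After turning, the first was negative on 6 of 6 arrays and the second on 5 of 6, array 5 being the exception. The turned shifts were −0.90 ± 0.35 (limma adjusted p = 0.319) and −0.64 ± 0.31 (adjusted p = 0.411), so neither passed. Without array 1 they were −0.99 (adjusted p = 0.558) and −0.71 (adjusted p = 0.618), and with array 1 turned over −0.67 (adjusted p = 0.964) and −0.45 (adjusted p = 0.965). Within day 1 they were −0.37 and −0.30 and within day 4 −0.73 and −0.63, so both days had the sign of the whole.

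When turned, the other subunits of the Paf1 complex did not follow a single side. With signs turned CDC73 was at −0.55 ± 0.40 (limma adjusted p = 0.634) and PAF1 at −0.32 ± 0.38 (adjusted p = 0.824). CTR9 was at 0.54 ± 0.45 (adjusted p = 0.698) and LEO1 at 0.25 ± 0.64 (adjusted p = 0.938). The complex had a turned median of −0.44 over 6 features, with array medians of −0.57, −0.89, −0.51, −1.15, 1.66 and −0.41. Array 5 was thus on the other side from the other 5 arrays. As deposited, 5 of the 6 features were negative (83.3%, against 48.5% of all features), with a median of −0.17. PAF1 was at −0.76 ± 0.38 there (limma adjusted p = 0.447), −0.89 without array 1 (adjusted p = 0.451) and −0.57 with array 1 turned over (adjusted p = 0.731). LEO1, the exception, was at 0.053 ± 0.64 (adjusted p = 0.988). LEO1 varied most, between −2.86 on array 5 and 3.29 on array 2 as deposited.

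The kinase complex CTDK-I, which phosphorylates the C-terminal domain during elongation, has CTK1 as its catalytic subunit, CTK2 as its cyclin and CTK3 as an additional subunit. CTK1 had 2 features 1193 identifiers apart. Feature 3673 lay at 1.33, −1.53, −0.64, 1.21, −0.54 and 0.56 as deposited, positive on all arrays after turning, with a turned shift of 0.97 ± 0.32 (limma adjusted p = 0.271, 0.558 without array 1), and 0.52 with array 1 turned over (adjusted p = 0.965). Feature 4866 lay at −1.52, −2.70, −0.21, −0.35, −1.39 and −1.55, negative on all arrays as deposited, with a deposited shift of −1.29 ± 0.38 (adjusted p = 0.129, 0.277 without array 1). With array 1 turned over that deposited shift was −0.78 (limma adjusted p = 0.639). With the arrays as labelled it was −0.69 (adjusted p = 0.284) after subtraction of the median of the 8 features with close identifiers, the neighbourhood described below. Each feature was near 0 in the reading in which the other led, at 0.065 ± 0.32 as deposited for 3673 and 0.15 ± 0.38 turned for 4866. So 1 gene led its class in both readings, through different features. On 4 arrays feature 4866 held the same value, to the last decimal, as the unnamed feature 4864. CTK2 (0.30 ± 0.36) and CTK3 (0.15 ± 0.31) had turned adjusted p of 0.819 and 0.922. KIN28, the kinase of the initiation factor TFIIH that acts on the same domain earlier, was at −0.001 ± 0.34 turned (adjusted p = 0.999).

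SPT4 and SPT5 form a clamp on the elongating polymerase. SPT4 was on the positive side of the deposited columns in both places. Feature 1770 lay at 0.58, 1.49, 0.74, 0.23, 0.45 and 1.00, positive on 6 of 6 arrays, with a shift of 0.75 ± 0.32 (limma adjusted p = 0.314, 0.457 without array 1). It was the 1 member feature positive on every array as deposited (1.54%, against 4.15% of all features). With array 1 turned over its shift was 0.55 (limma adjusted p = 0.658). In that setting 0 of 65 member features were positive on every array as deposited (against 2.42% of all features). With the arrays as labelled, feature 4410 was at 0.43 ± 0.33 (adjusted p = 0.679). SPT5 was at 0.48 ± 0.34 and 0.11 ± 0.33 as deposited (adjusted p = 0.647 and 0.945). SPT6, a histone chaperone that binds the polymerase, was at 0.49 ± 0.35 (adjusted p = 0.654).

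FACT, the histone chaperone made of SPT16 and POB3, had 2 features for each gene, and its 4 turned shifts were small and on the negative side, from −0.39 to −0.004, with an adjusted p of 0.714 or more. DST1 encodes TFIIS, which rescues backtracked polymerase, and its features had turned shifts of 0.55 ± 0.38 and 0.44 ± 0.34 (limma adjusted p = 0.613 and 0.664). ELF1, a conserved elongation factor, had turned shifts of −0.51 ± 0.30 and −0.37 ± 0.37 (adjusted p = 0.532 and 0.761), and its first feature was negative on 6 of 6 turned arrays. For DST1, ELF1, POB3, SPT16 and SPT5, both places gave the same turned sign with shifts 0.061 to 0.14 apart, less than the SE of either.

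With the arrays as labelled, Mediator held the members furthest from 0 when signs were turned, SSN3 above and GAL11 below. With array 1 turned over SSN3 was at 1.36 (limma adjusted p = 0.549) and GAL11 at −0.33 ± 1.04 (adjusted p = 0.996). As deposited with array 1 turned over, SSN3 was at −1.20 (limma adjusted p = 0.405) and GAL11 at 1.76 ± 1.04 (adjusted p = 0.631). SSN3 is the cyclin-dependent kinase of the kinase module, and its centred ratio was 0.58, −2.29, −2.67, 0.56, −2.73 and 0.50 on arrays 1 to 6 as deposited. The 3 arrays with the mutant in channel 1 lay close together above 0, and the 3 with the mutant in channel 2 lay well below it. The turned shift was 1.56 ± 0.30 (limma adjusted p = 0.180, 0.366 without array 1), and leaving out each array in turn kept it between 1.51 and 1.62. It was 1.61 within day 1 and 1.62 within day 4. As deposited, the unequal size of the 2 sets left a shift of −1.01 ± 0.30 (adjusted p = 0.128), which was −0.12 (adjusted p = 0.897) after the same neighbourhood subtraction. Its partners in the module did not show this split: the cyclin gene SSN8 was at 0.13 ± 0.31 turned, SRB8 at 0.21 ± 0.39 and SSN2 at 0.21 ± 0.32 (adjusted p = 0.934, 0.908 and 0.870). SSN2 held the same value as the neighbouring feature of GIN4 on all 6 arrays, so its value is not separate from that feature.

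GAL11 is a tail subunit and the contact of several activators. It lay at −7.05, 0.36, 5.32, −2.15, 0.61 and −0.60 on arrays 1 to 6 as deposited. All 6 arrays were negative after turning, but arrays 1 and 3, which share a day and a slide number, held most of the shift. The turned shift was −2.68 ± 0.80 (limma adjusted p = 0.254), and −1.74 without array 1 (adjusted p = 0.538). Within day 1 it was −0.61 and within day 4 −6.18. SIN4, also in the tail, lay on the other side when turned. Its values were 0.21, −0.51, −2.0, 0.24, −2.19 and 0.68 as deposited. The turned shift of SIN4 was 0.97 ± 0.34, positive on 6 of 6 arrays (limma adjusted p = 0.285, 0.551 without array 1). With array 1 turned over it was 0.90 (adjusted p = 0.964). The remaining tail members were nearer 0 when turned, from −0.51 for a feature of PGD1 to 0.11 for a feature of NUT1. As deposited, all 7 tail features had shifts on the negative side (100%, against 48.5% of all features), with a median of −0.22. GAL11 was at −0.586 ± 0.80 and SIN4 at −0.595 ± 0.34 there (limma adjusted p = 0.858 and 0.520). This rests on the sign of array 1 for GAL11, whose deposited shift was positive with that array turned over.

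In the head, MED11 had the largest turned shift, at 1.06 ± 0.36 with 5 of 6 arrays positive (limma adjusted p = 0.280, 0.558 without array 1), and 0.77 with array 1 turned over (adjusted p = 0.964). SRB6 was positive on 6 of 6 turned arrays at 0.52 ± 0.33 (adjusted p = 0.569), with 1.69 on array 4 against 0.10 to 0.46 on the others. SRB4, a central head subunit required for transcription of most genes, was at −0.44 ± 0.32 (adjusted p = 0.649). On 4 arrays it held the same value as the feature of AIM9, so it is not fully separate from that feature. In the middle, MED4 was at 0.58 ± 0.34 and MED7 at −0.32 ± 0.37 (adjusted p = 0.529 and 0.806). NUT2 varied most of the middle, between −5.66 on array 2 and 2.14 on array 5 as deposited. RGR1, the scaffold, had features at −0.48 ± 0.37 and 0.056 ± 0.33 turned (adjusted p = 0.663 and 0.976).

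As deposited, NUT1 and SOH1 followed SSN3 as the Mediator members with the smallest p on the negative side. NUT1 (feature 1724), a tail subunit, lay at −1.72, −2.61, −1.35, −0.78, 0.53 and −0.94, and SOH1 (1721), a middle subunit, at −0.50, −2.37, −1.37, −1.03, 0.039 and −0.62. Array 5 was the exception to the negative side in both. Their shifts were −1.15 ± 0.41 (limma adjusted p = 0.205) and −0.97 ± 0.36 (adjusted p = 0.229). With array 1 turned over they were −0.57 (limma adjusted p = 0.763) and −0.81 (adjusted p = 0.580). Without array 5, NUT1 was at −1.57 and passed (adjusted p = 0.0463), in a fit that called 2.79% of all features. The second feature of each gene did not repeat this, at −0.21 ± 0.34 for NUT1 (4364) and −0.026 ± 0.31 for SOH1 (4361), with adjusted p of 0.885 and 0.987. These second features are not fully separate readings. On 3 arrays NUT1 4364 held the same value as the feature of YGL159W, and on 3 arrays SOH1 4361 that of COQ8. The 2 genes lay 3 identifiers apart in both places. SRB2 was also negative as deposited, at −0.72 ± 0.51 (limma adjusted p = 0.641). On the positive side ROX3 (0.665 ± 0.34) and SSN8 (0.58 ± 0.31) had the smallest p, with adjusted p of 0.452 and 0.494. ROX3 was at 0.084 after neighbourhood subtraction (adjusted p = 0.937). RGR1 3374, SRB8 and SRB6 were at 0.419 ± 0.37, 0.425 ± 0.39 and 0.21 ± 0.33 (adjusted p = 0.733, 0.749 and 0.880).

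**Figure D3:**
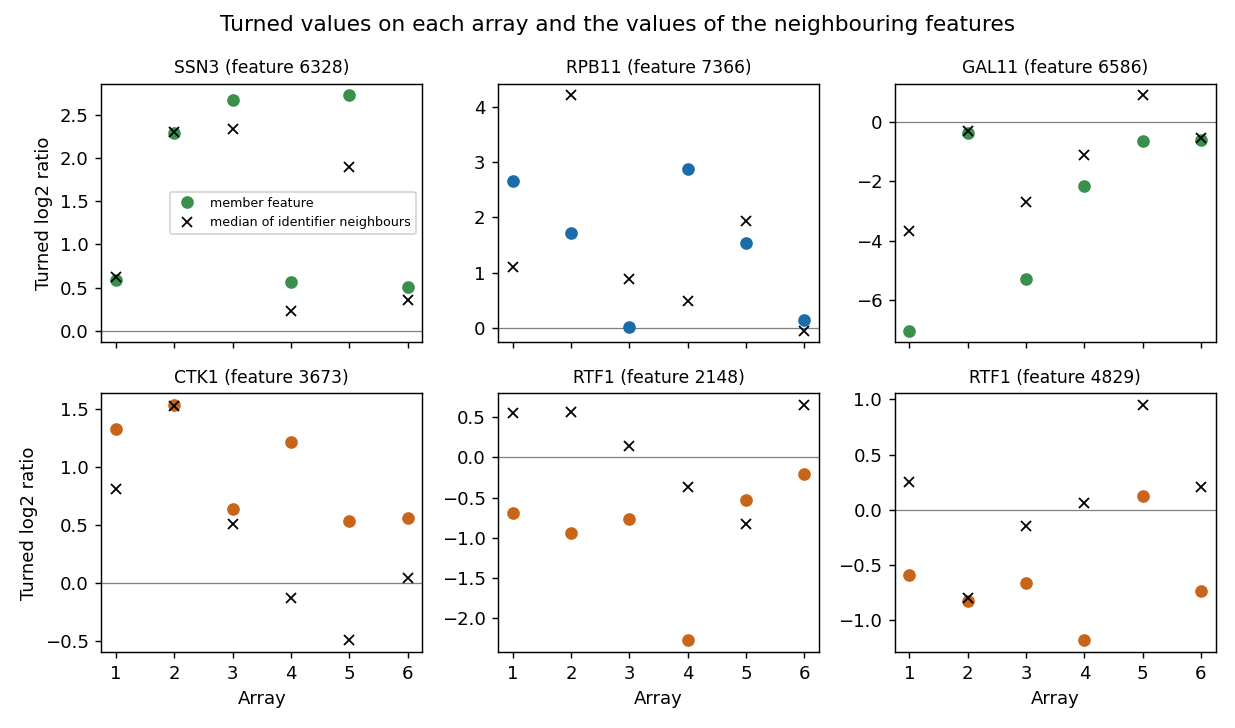
Turned log2 ratio on each array of 5 members over 6 features (filled circles) and of their neighbourhood, the median of the 8 features that lie 1, 2, 20 or 21 identifiers off (crosses). The vertical scales differ between panels. The crosses lie on the side of the circles on all 6 arrays for SSN3, on the same side for GAL11 on all arrays but array 5, and on both sides of 0 for the 2 features of RTF1.

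Features with close identifiers had similar values: across features of an array, the deposited values of features 1 identifier apart correlated at 0.416 to 0.523 on the 6 arrays and those 20 apart at 0.362 to 0.447, against 0.091 to 0.278 at 10 apart. Positions on the slide were not used here. With signs turned, SSN3, RPB11, RPB2 and GAL11 lay on the side of the features of close identifiers. The turned shifts of the 8 features 1, 2, 20 and 21 identifiers from SSN3 were all positive, from 0.30 to 1.74. Those around RPB11 were all positive, from 0.67 to 2.24, those around RPB2 from 0.13 to 1.78, and those around GAL11 were all negative, from −2.87 to −0.22. After subtraction of the neighbourhood median on each array, SSN3 had a turned shift of 0.27 (limma adjusted p = 0.712) and RPB11 of 0.066 (adjusted p = 0.978). GAL11 kept −1.46 (adjusted p = 0.528). As deposited RPB11 did not follow its neighbours. It was at 0.40 ± 0.42, whereas the shifts of its 8 neighbours ran from −1.42 to −0.27. There the subtraction gave 1.32 for RPB11 (limma adjusted p = 0.188). For RPB3 it moved the deposited shift from 0.31 to 1.02 (adjusted p = 0.162). The 8 features around RTF1 2148 lay on both sides, from −0.51 to 0.40, and those around RTF1 4829 from −0.28 to 0.26. With the same subtraction RTF1 had turned shifts of −1.02 and −0.73 (adjusted p = 0.528 each). For CTK1 3673 the corrected turned shift was 0.59 (adjusted p = 0.546), and for SIN4 and MED11 0.53 and 0.57 (adjusted p = 0.636 and 0.552).

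Over the 65 member features the turned shift correlated at 0.704 with the turned mean of its neighbourhood, against 0.661 over all 7680 features. As deposited the values were 0.384 and 0.603. These are correlations across features of the same arrays, given as a description. In sign, 41 of 65 member features matched their neighbourhood when turned (63.1%, against 70.4% of all features) and 39 as deposited (60.0%, against 70.1%). RPO21 was at 0.093 ± 0.30 turned, where all 8 neighbours were negative, and the correction gave 0.73 turned (limma adjusted p = 0.528) and −0.48 as deposited (adjusted p = 0.543). As deposited, 7 of its 8 neighbours had its sign and their shifts ran from −0.39 to 0.29. NUT1 and SOH1 lay among neighbours on both sides as deposited, and the correction gave −1.28 (adjusted p = 0.247) and −1.25 (adjusted p = 0.124). At least 1 value was identical to another feature of the same array in 13 of the 65 member features, against 1220 of all 7680 (15.9%).

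**Figure D4:**
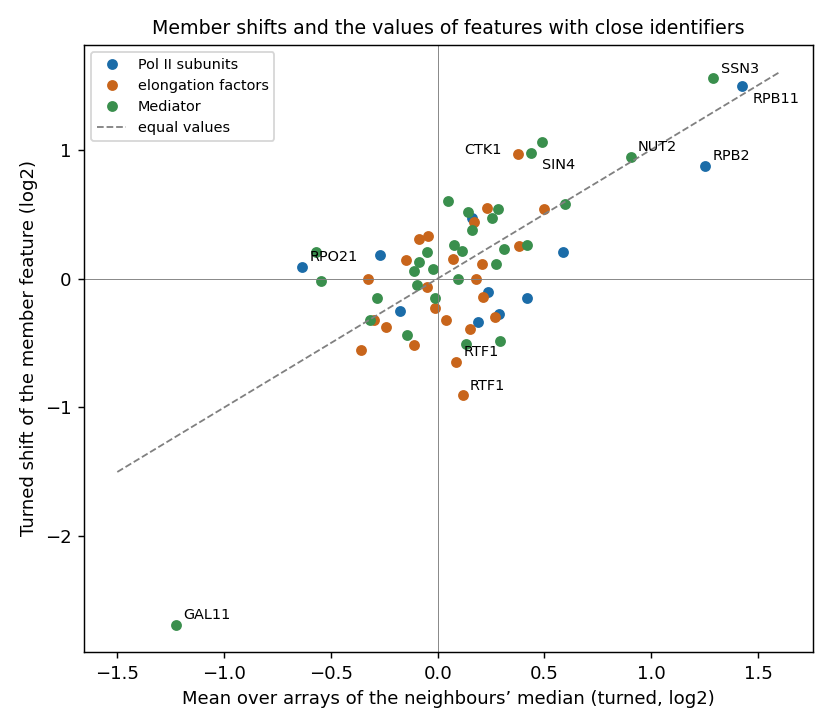
Turned shift of each of the 65 member features (log2) against the mean over arrays of its neighbourhood median (turned, log2), coloured by class, with a dashed line of equal values. SSN3, RPB11, RPB2 and NUT2 lie with neighbourhoods above 0.90, GAL11 with one at −1.23, and both RTF1 features with neighbourhoods at 0.12 and 0.088.

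The 14 members with 2 features allow the same gene to be read in 2 places of an array. Both features fell on the same side in 11 of 14 members when turned (r = 0.693 across the 14 pairs) and in 10 of 14 as deposited (r = 0.261). Over all 1100 genes with 2 features, 65.3% had the same turned side (r = 0.626) and 56.6% the same deposited side (r = 0.040). The pairs are not independent, since neighbouring genes were often repeated together, as SPT5 and POB3 were 20 identifiers apart in both places. On single arrays as deposited, the member pairs correlated between 0.024 on array 6 and 0.651 on array 3. All 14 pairs lay on the same side on array 2 and 7 of 14 on array 4. RTF1, DST1 and ELF1 were among the 11 of 14 members with the same turned sign at both places. Their limma adjusted p ran from 0.319 to 0.761, and none of them passed.

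**Figure D5:**
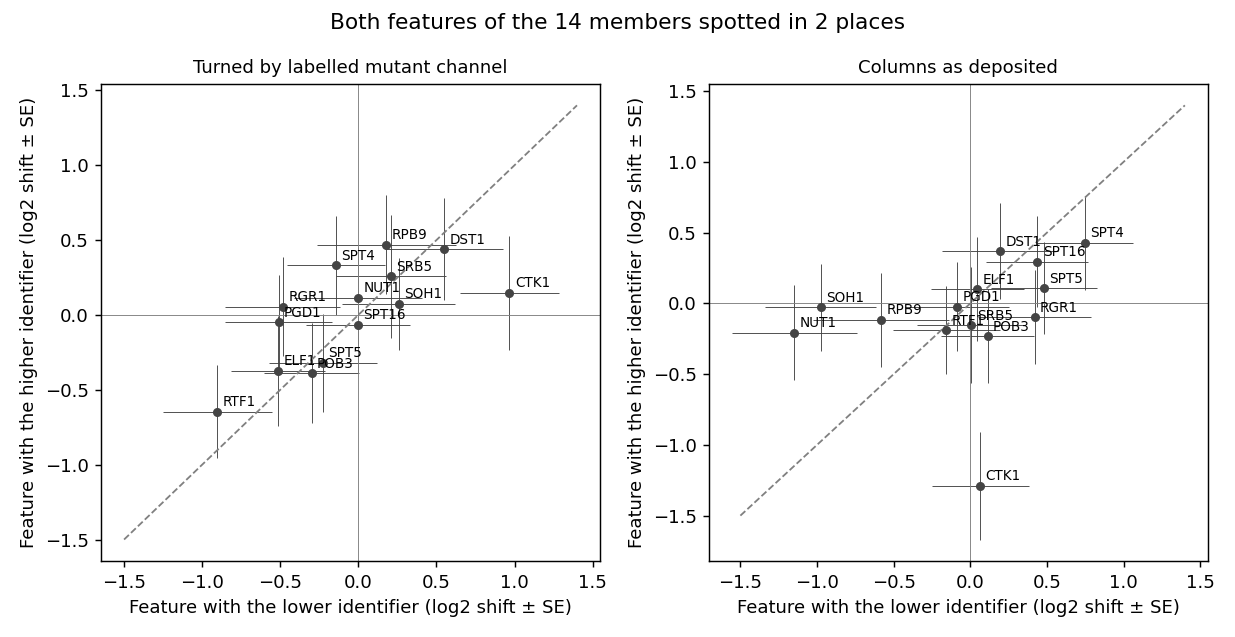
Shift (log2, ± SE) of the feature with the lower identifier against that with the higher one for the 14 members with 2 features, with signs turned on the left and as deposited on the right, and a dashed line of equal values. RTF1 lies low on both axes on the left, and CTK1 lies far from the line in both panels.

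Further lists hold other genes of Pol II transcription, and no difference between them and other features was tested. These lists, like the members, were chosen with earlier results of these data known. Limma called 0 features in each of the 4 lists in both readings. Of the 20 features of 17 general transcription factor genes, 1 was positive and 1 negative at an unadjusted p under 0.05 when turned, and 0 and 2 as deposited. Over all features these shares were 7.51% and 5.48% turned, and 6.13% and 7.33% as deposited. The median shift of these factors was 0.006 turned and 0.001 as deposited. SPT15, the TATA-binding protein, was at −0.96 ± 0.33 turned (limma adjusted p = 0.282). On the positive turned side TFB2 was at 1.49 ± 0.67 and TFB4 at 0.86 ± 0.42 (adjusted p = 0.382 and 0.415). TFG1 and TFG2, the 2 large subunits of TFIIF, were at −1.20 ± 0.38 and −1.18 ± 0.45 as deposited (adjusted p = 0.151 and 0.246). The 13 TAF genes, subunits of TFIID, had 1 and 0 of 15 features on the positive and negative side turned, and 2 and 2 as deposited (13.3% on each side), with medians of 0.091 turned and −0.071 as deposited. The 13 SAGA coactivator genes had 1 and 1 of 15 turned, and 1 and 0 as deposited, with medians of −0.25 and 0.082. The last list, of other elongation and C-terminal domain factors, also named the Pol II subunit genes RPB10 and RPC10 and the chromatin genes SET1, SET2 and DOT1. Its 16 measured genes had 1 and 0 of 18 features turned, and 0 and 1 as deposited, with medians of 0.10 and −0.018. The one on the positive side was SPN1, a partner of SPT6, at 1.27 ± 0.38 (adjusted p = 0.254).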

How the data were processed

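RNA of yra1-1 and of wild type was compared on 6 two-colour arrays, 3 per labelled mutant channel. The authors deposited 1 log10 ratio per feature and array. The log base was read from the values, whereas the sources used here do not give image analysis, background, filtering or normalization. Array medians ran from −1.18 to 1.24 (log10), so columns had not been centred. No intensities were used, so signal over background is unknown, and the number of arrays limits the precision.

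The table held 7684 rows. The 1 row without an identifier was left out and 3 repeated identifiers were averaged. Ratios were converted to log2, centred per array and fitted with limma 3.58.1 (R 4.3.3; lmFit, eBayes) with both sign terms, wherever a feature had at least 4 array values, 2 of them per channel assignment. Tests are two-sided with a threshold of 0.05, and the script was tested on simulated data. P-values measure the spread between arrays, which may be technical. Gene symbols came from the platform annotation, and all 65 member features matched the current gene table (R64).

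The members, lists and alternatives were chosen with earlier results of these data known. Chosen for description in each reading were, per class, up to 4 features (Mediator 5) on each side with the smallest p. RPO21 and the kinases of its repeats, members with 2 features, and YRA1, TRP1 and URA3 were added. Some of the chosen features are given in 1 reading only. Members named outside this rule complete a complex. Alternatives covered leaving out arrays, scaling, centring, neighbourhood, day, repeated values, missing values, the second sign term and the sign of array 1.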

Additional observations from a re-analysis of the deposited data

Results flagged for a closer look

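Among 58 sets of 6 array values examined (named members and class medians), 8 had 1 array far from the other 5 by Dixon's gap test. Chance gives this in about 1 of 20 independent sets. These sets are not independent, since a feature can enter in both readings, as RPB2 and SRB6 did. The named members were also picked by their p. The count therefore does not measure an excess over chance. RPB2 lay at 4.19 on array 5 turned and at −4.19 there as deposited, where the other 5 arrays lay between −0.73 and 0.54. The median of the Pol II subunits, to which RPB2 contributes 1 of 11 features, was −0.53 on array 5 as deposited, against −0.019 to 0.16 on the others. RTF1 (feature 2148) lay at −2.28 on array 4 turned, and its second feature was lowest on that array too, at −1.18. SRB6 lay at 1.69 on array 4 in both readings. MED7 lay at 1.47 on array 5 turned, with the other 5 arrays negative. SRB8 lay at −1.51 on array 2 as deposited, with the other 5 arrays positive. The values of features with identifiers close to RPB2 are given above, and the part of any single array's quality in these values was not tested.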

How the results depend on the processing

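All arrays form 1 group, and each holds both strains, so the strains were compared within arrays. The labelled days that hold both channel assignments entered only through the alternatives for day and the within-day values above. Limma called 0 member features in both readings under each alternative except no centring for the turned reading, with 38 of 65 (58.5%, against 63.6% of all features), and leaving out array 5 as deposited, with 1 (NUT1; 1.54%, against 2.79%), a range of 0 to 1 over the arrays left out. At an unadjusted p under 0.05 it placed 2 to 10 member features, no centring aside (3.08% to 15.4%, against 3.80% to 16.1% of all features over the same settings). With the array medians left in, all features together had a median of −2.07 turned and −0.82 as deposited. The class medians moved with it, to −2.02, −2.14 and −1.90 turned and −0.59, −0.76 and −1.01 as deposited for Pol II subunits, elongation factors and Mediator. The sign turned without centring for CTK1 3673 (−1.14), DST1 (−1.56 and −1.67), CTR9 (−1.57), MED11 (−1.05), MED4 (−1.53), SRB6 (−1.59), SSN3 (−0.55), SIN4 (−1.14), RPB9 5665 (−1.64), RPB2 (−1.23), RPB11 (−0.62) and RPO26 (−1.90) in the turned reading. As deposited it turned for ROX3 (−0.17), SRB6 (−0.62), RPB7 (−0.41), SRB8 (−0.41), SPT16 (−0.40), SPT4 (−0.085), RPB3 (−0.52), RPB4 (−0.058), SPT6 (−0.34), RGR1 (−0.41), SPT5 (−0.35), SSN8 (−0.26) and RPO26 (−0.076).

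With the neighbourhood correction the Pol II median was −0.34 turned. There MED4 (−0.016), RPB2 (−0.38) and RPO26 (−0.38) changed sign turned, and SRB6 (−0.027), SRB2 (0.61), RPB9 (0.027 and 0.084) and POB3 (0.033) as deposited. With array 1 turned over the deposited Pol II median was −0.047, and DST1 4327 (−0.007) and MED7 (0.013) changed sign turned and CDC73 (0.12) and POB3 (0.014) as deposited. Leaving out arrays gave ranges through 0 for RPO26 turned (−0.020 to 0.39) and for SRB6 (−0.027 to 0.34), CDC73 (−0.58 to 0.097), RPB9 5665 (−0.36 to 0.081) and RPB2 (−1.10 to 0.070) as deposited. Medians without 1 array ran from −0.060 to 0.070 for Pol II, −0.19 to 0.017 for elongation factors and 0.037 to 0.32 for Mediator turned, and from 0.070 to 0.21, −0.040 to 0.21 and −0.22 to −0.085 as deposited. Apart from centring, the cause of these changes was not tested. The other alternatives changed no sign and no call of a named member. Without repeated values 6 named results could not be tested.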
